A study of Mus musculus with 16 samples.

Results

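Docosahexaenoyl serotonin (DHA5HT), a conjugate of the n-3 fatty acid docosahexaenoic acid with serotonin, was compared with solvent in RAW264.7 cells that received no lipopolysaccharide (LPS). RAW264.7 is a virus-transformed mouse line with macrophage properties, grown here in DMEM with serum, so all arrays come from 1 established line and not from macrophages of animals. The comparison was chosen by the sample titles and takes 8 of the series' 16 arrays: 4 arrays of DHA5HT at 1 µM and 4 arrays of the control, whose label gives ethanol at 0.1% (v/v). The remaining 8 arrays, 4 of LPS at 1 µg/ml and 4 of LPS at 1 µg/ml with DHA5HT at 1 µM, were used to estimate the spread between arrays and for the values set beside the resting cells. Every group was exposed for 24 h. The labels do not say whether the wells with DHA5HT alone held ethanol; where they did not, the compound and the missing solvent cannot be told apart. LPS+DHA5HT array 1 carries both agents in its title and DHA5HT alone in its treatment label, and was grouped by its title; it is in neither group of the resting comparison. The labels do not say that the arrays came from separate cultures, so p-values measure the spread between these samples, which may be technical.

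Resting macrophages make a small steady amount of type I interferon, and the genes that answer to it are read out continuously at a low level. Interferon binds a receptor of paired chains, and Janus kinases at that receptor start a signal that reaches the interferon-stimulated response element (ISRE) in the promoters of interferon-stimulated genes. Products of these genes sense viral RNA and DNA, block viral replication, or feed back on the pathway: IRF7 amplifies interferon production, and USP18 dampens receptor signalling. LPS, the bacterial ligand of Toll-like receptor 4, turns on the same genes together with NF-kB targets such as cytokines and Ptgs2.

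Expression was measured on whole-transcript microarrays, and all values are log2 intensities, so that a difference of 1 is a change of 2-fold. The 35556 probe sets gave 18820 genes with a probe set of their own. The arrays' medians lay between 4.58 and 4.67, and the number of arrays limits the precision. Markers of other cell types gave a working background of 3.62, the median of 24 lymphocyte and epithelial markers. The 19 macrophage identity genes averaged 9.95 to 10.09 in the control arrays and 9.98 to 10.06 in the DHA5HT arrays, with Csf1r, the receptor for macrophage colony-stimulating factor, at 11.87 ± 0.05 (SD, n = 4) and 11.94 ± 0.02. Lymphocyte markers averaged 3.36 to 3.51 and 3.35 to 3.52, epithelial markers 4.01 to 4.06 and 4.03 to 4.11, fibroblast and endothelial markers 4.01 to 4.09 and 4.08 to 4.10, and granulocyte and mast cell markers 3.48 to 3.52 and 3.46 to 3.57, in the same order. None of these markers of other lineages passed the test between the groups. Values are of bulk RNA, in which fewer cells of a type and less RNA per cell cannot be told apart.

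DHA5HT alone lowered a set of genes that included 30 of 36 listed interferon-stimulated genes, and raised a smaller set by small amounts. With limma, which fits all 18820 genes, and Benjamini-Hochberg adjustment, 113 genes (0.6% of those tested) passed an adjusted p of 0.05, 90 lower (0.478%) and 23 higher (0.122%) with DHA5HT. Of the lower genes, 24 fell by at least 2-fold and 59 by at least 1.5-fold. None of the higher genes rose 2-fold; the 2 whose means differed by at least 1.5-fold, Mrc1 and Egr4, had control means below background, and their bounds against background are lower (given with the genes). In 112 of the 113 genes the 4 arrays of one group all lay on the same side of the 4 of the other, which held for 5.89% of all genes tested (2.85% lower and 3.03% higher with DHA5HT); since these genes were called on the same values, that count describes them and adds nothing to the test. The median change of all genes was 0.0099, and 46.1% of all genes lay below 0. Same-numbered arrays deviated together, and with the replicate number as a block 179 genes passed, 123 lower and 56 higher, among them 111 of the 113.

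**Figure D1:**
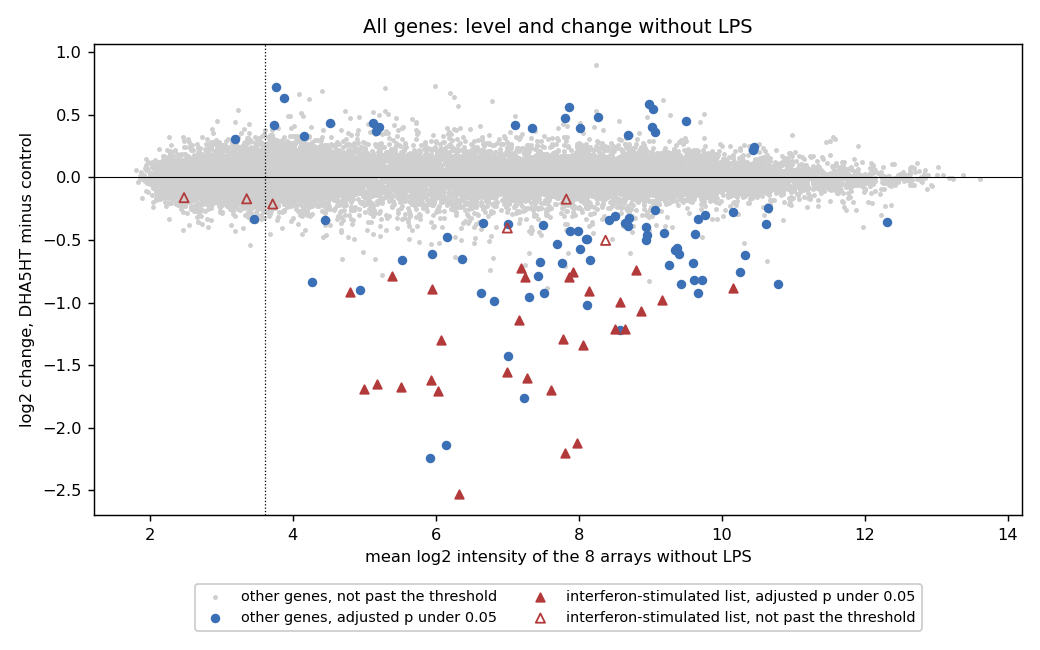
Change with DHA5HT (log2, DHA5HT minus control, y axis) against the mean log2 level over the 8 arrays without LPS (x axis), 1 point per gene for 18820 genes; filled coloured points passed the adjusted p of 0.05, triangles are the 36 interferon-stimulated genes of the list (open where they did not pass), and the dotted line is the background of 3.62. The 90 lower genes reach 2.53 log2 units below 0, while the 23 higher genes stay within 0.72 above it.

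**Figure D2:**
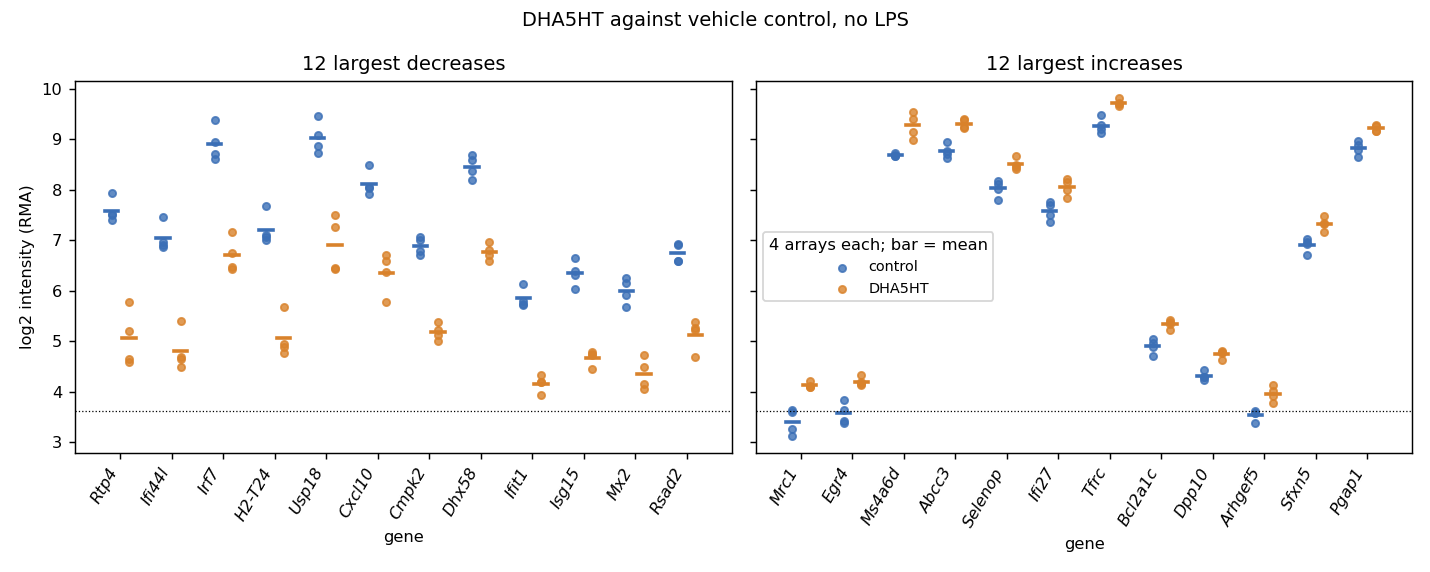
The 12 largest decreases and 12 largest increases whose arrays did not overlap, by gene (x axis), with the log2 level on the y axis, 1 point for each of the 4 control and 4 DHA5HT arrays, a bar at each group's mean and a dotted line at the background of 3.62. The control and DHA5HT points of the decreases stand well apart, Rtp4 at 7.59 against 5.06 on average, and those of the increases lie close together, Ms4a6d at 8.69 against 9.27.

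Of the 36 measured interferon-stimulated genes of the list, 30 fell, none rose, and all 36 lay below 0, with a median change of -1.04 against 0.0099 for all genes. Averaged over the 36 genes, the control arrays stood at 7.37, 7.54, 7.46 and 7.73 and the DHA5HT arrays at 6.28, 6.42, 6.32 and 6.59. Even the highest DHA5HT array thus lay below the lowest control array. The count was 27 to 30 when each of the 8 arrays was left out in turn. The promoters of 4 of the genes that fell are shown first, because they carry the ISRE through which interferon acts: Isg15, a ubiquitin-like protein attached to other proteins; Ifit1, which binds foreign RNA caps; Rsad2 (viperin), which makes a chain-terminating nucleotide; and Cxcl10, a chemokine that draws T cells. Each window runs 5′ to 3′ on the gene's own strand from 250 bases before to 50 bases into the RefSeq gene (build GRCm38.p6), and capitals mark the ISRE core, GAAA followed by any 2 bases and GAAA again, on either strand and with overlapping matches included. Isg15 lies at chr4:156200769-156201068 on the minus strand, with 3 overlapping matches, Ifit1 at chr19:34640639-34640938 on the plus strand with 2, Rsad2 at chr12:26456403-26456702 on the minus strand with 1, and Cxcl10 at chr5:92348840-92349139 on the minus strand with 1.
Isg15: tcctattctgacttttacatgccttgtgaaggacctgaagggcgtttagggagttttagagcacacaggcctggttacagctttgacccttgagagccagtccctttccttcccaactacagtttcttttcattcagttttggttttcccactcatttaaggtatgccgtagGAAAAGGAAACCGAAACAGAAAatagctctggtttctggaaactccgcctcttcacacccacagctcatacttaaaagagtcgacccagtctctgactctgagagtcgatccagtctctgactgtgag
Ifit1: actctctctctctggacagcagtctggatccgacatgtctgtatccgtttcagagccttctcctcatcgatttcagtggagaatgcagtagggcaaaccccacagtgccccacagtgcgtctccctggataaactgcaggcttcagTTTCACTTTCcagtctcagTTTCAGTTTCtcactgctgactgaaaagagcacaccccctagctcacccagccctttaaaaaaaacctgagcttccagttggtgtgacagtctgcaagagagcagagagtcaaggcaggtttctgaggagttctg
Rsad2: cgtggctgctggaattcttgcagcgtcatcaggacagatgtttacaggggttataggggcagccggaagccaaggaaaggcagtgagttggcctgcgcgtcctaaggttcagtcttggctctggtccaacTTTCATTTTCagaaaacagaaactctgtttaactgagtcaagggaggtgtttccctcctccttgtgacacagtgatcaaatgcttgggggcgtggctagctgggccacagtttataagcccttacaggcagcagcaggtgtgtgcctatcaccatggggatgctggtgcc
Cxcl10: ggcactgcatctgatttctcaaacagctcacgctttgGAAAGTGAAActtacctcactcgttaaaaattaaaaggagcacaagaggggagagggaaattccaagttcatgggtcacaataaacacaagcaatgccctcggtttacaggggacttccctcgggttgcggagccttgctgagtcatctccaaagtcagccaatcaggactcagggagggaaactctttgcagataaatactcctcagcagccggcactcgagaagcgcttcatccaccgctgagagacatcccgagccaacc

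Of all 32851 windows of this length in the promoter table, 3.44% held the ISRE core. A gene with several windows is counted below as holding it where any of them does. Counted so, 3.91% of all measured genes with a window held it. It was present in 23 of the 77 lower genes with a window (29.9%), in 9 of the 54 that were not on the interferon list (16.7%), and in 2 of the 19 higher genes (10.5%), Egr4 and Selenop. The 9 outside the list were Cxcl10, Ddx60, Eif2ak2, Ifi203, Lgals9, Ogfr, Phf11a, Slfn8 and Tdrd7. The list does not hold every gene that interferon induces, Cxcl10 being 1 it leaves out. The share outside it is therefore not a share of genes that interferon leaves alone. The share for the interferon list itself is not given, since 27 of its 36 genes have a window, too few for the list. A form of the NF-kB site, GGGA followed by any 4 bases and CC, searched the same way, was in 20.7% of all windows. Counted by gene, it was in 26.8% of all measured genes with a window, in 29.9% of the lower and in 31.6% of the higher ones. The windows of Irf7, Cmpk2, Oasl1 and Ifi44l held no match to the ISRE core, which says only that these letters are not in those 300 bases. A stretch of bases may count for more than 1 motif.

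Both transcription factors of the response that passed the test fell. Irf7, which amplifies interferon production, stood at 8.61, 8.95, 8.70 and 9.37 in the control arrays and at 6.43, 6.48, 6.74 and 7.16 with DHA5HT. Every DHA5HT array lay below every control array, and the mean fell from 8.91 ± 0.34 to 6.70 ± 0.34 (SD, n = 4 each), a change of -2.21 (SE 0.17) or 4.61-fold, with an adjusted p of 2.02e-06. Irf9, a DNA-binding factor of the complex at the ISRE, stood at 8.14, 8.42, 8.21 and 8.40 in the control and at 7.42, 7.47, 7.53 and 7.74 with DHA5HT. Its groups did not overlap either, and it fell by 0.75 on the log2 scale (1.69-fold, adjusted p 0.00017). Usp18, the negative regulator that removes ISG15 from proteins and restrains the receptor, stood at 8.73, 9.08, 8.86 and 9.46 against 6.45, 7.26, 6.43 and 7.49 and was 4.36-fold lower (adjusted p 5.68e-05). Stat2 moved from 8.63 ± 0.20 to 8.12 ± 0.14, a change of -0.50 that did not pass the test (adjusted p 0.163) but did with the replicate block (0.0114). Irf1, another factor of the family, changed by -0.17 (adjusted p 0.496).

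The genes upstream of these regulators showed no called change. None of the 14 measured interferon ligand genes passed, none had an unadjusted p under 0.05, their changes ran from -0.17 to 0.11, and 9 of them lay below background in both groups. Ifnb1, the interferon that macrophages make first, was at 3.27 in the control and 3.35 with DHA5HT, both under the background of 3.62. A decrease in it, or a rise that stayed below that level, was thus not detectable. The 6 receptor chains did not pass, with Ifnar1 at 9.33 and 9.31 and Ifnar2 at 10.30 and 10.32. Of the 9 Janus kinases and STAT factors none passed, and Stat2 alone did with the block; Jak1 was at 10.16 and 10.20 and Tyk2 at 7.95 and 7.82. Irf3 (change -0.12), Irf5 (0.14) and Irf8 (0.07) did not pass, which leaves Irf7 and Irf9 as the 2 of 8 interferon regulatory factors called, in each of the fits with and without the block. The gene families in this paragraph, in the next and in that on families of effectors were put together after the values had been seen.

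The cytosolic sensors of viral nucleic acid fell in part, and none of them rose. Over all genes 0.478% fell and 0.122% rose. Of 19 sensors and their adaptors 8 fell: Dhx58 (LGP2), Ddx58 (RIG-I) and Ifih1 (MDA5), the 3 RNA helicases of one family, the Z-form nucleic acid sensor Zbp1, the DNA exonuclease Trex1, the RNA-activated kinase Eif2ak2, the RNA-editing enzyme Adar and the nucleotide hydrolase Samhd1. Dhx58 stood at 8.19, 8.70, 8.37 and 8.59 in the control and at 6.58, 6.80, 6.71 and 6.97 with DHA5HT. That is 3.24-fold lower (change -1.70, SE 0.10, adjusted p 1.39e-07), with the groups far apart. Ddx58 fell by 1.21 and Ifih1 by 0.91 on the log2 scale. Trex1 fell by 0.61, Eif2ak2 by 0.56, Adar by 0.50 and Samhd1 by 0.25. Samhd1 lost its call when any of the 8 arrays was left out, and Eif2ak2 without DHA5HT array 1, DHA5HT array 2 or control array 4. The DNA sensor Cgas (7.89 and 7.87), the adaptor Sting1 (10.03 and 10.08), the RNA-sensing adaptor Mavs (9.84 in both groups) and the endosomal receptor Tlr3 (7.88 and 7.68) did not pass. The replicate block added the adaptor Ticam1 (-0.36, adjusted p 0.0336).

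Antiviral effectors were among the large decreases. Rtp4, an interferon-induced chaperone of membrane receptors, had the largest change of any gene called: 7.40, 7.51, 7.50 and 7.94 in the control arrays and 4.59, 5.21, 4.65 and 5.77 with DHA5HT, 5.78-fold lower (change -2.53, SE 0.22, adjusted p 6.63e-06). Arrays 2 and 4 were the higher of the DHA5HT group, and both still lay well below the lowest control array. Isg15 stood at 6.03, 6.40, 6.32 and 6.65 and at 4.78, 4.72, 4.45 and 4.75, a change of -1.67 (SE 0.15, 3.19-fold, adjusted p 8.83e-06). Ifit1 stood at 5.72, 5.74, 5.80 and 6.13 and at 3.93, 4.32, 4.18 and 4.20, 3.23-fold lower (adjusted p 2.53e-06), which brought it near background. Rsad2 went from 6.75 ± 0.19 to 5.13 ± 0.31 (3.08-fold, adjusted p 9.28e-06). Its neighbour on the genome Cmpk2, a mitochondrial nucleotide kinase that makes the substrate of viperin, stood at 6.70, 7.01, 6.79 and 7.06 against 4.99, 5.12, 5.22 and 5.39 and was 3.27-fold lower (adjusted p 1.39e-07). Rsad2 and Cmpk2 thus changed by like amounts, -1.62 and -1.71. Ifi44l, an interferon-induced protein, was 4.73-fold lower (4.80 ± 0.41 against 7.05 ± 0.28) and Mx2, a dynamin-like GTPase, 3.14-fold (adjusted p 0.000892).

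Families of effectors fell in part, against 0.478% lower and 0.122% higher over all genes. Of 11 genes for 2′-5′ oligoadenylate synthetases, enzymes that make the activator of RNase L, and for related OAS-like proteins, 5 fell. These were Oasl2 by 1.60, Oas3 by 1.34, Oas2 by 1.29, Oasl1 by 1.14 and Oas1a by 1.00 on the log2 scale. Of 5 Ifit genes 2 fell, Ifit1 and Ifit3. Guanylate-binding proteins, GTPases that attack the vacuoles of intracellular microbes, fell in 3 of 7 genes: Gbp7 by 1.30, Gbp3 by 0.79 and Gbp2 by 0.78. Among the immunity-related GTPases Irgm1 fell by 0.74, 1 of 4, and Iigp1 lay below background in both groups. Of the Schlafen genes 3 of 6 fell (Slfn8, Slfn2, Slfn4), of the p200 DNA-binding proteins 2 of 9 (Ifi202b, Ifi203), of the PARP enzymes 2 of 9 (Parp14, Parp12), and of the TRIM proteins Trim30a alone of 59. No member of these families passed in the other direction. The replicate block added Oas1b (-0.78, adjusted p 0.00208) and Gbp9 (-0.74, adjusted p 0.00485). Other interferon-inducible genes that fell were Xaf1 (-1.56), an antagonist of apoptosis inhibitors, Isg20 (-1.21), an exonuclease, Bst2 (-0.98), the tether that holds budding virions, Helz2 (-0.96), a helicase, Ube2l6 (-0.67), the conjugating enzyme for ISG15, and Lgals9 (-0.85), the lectin galectin-9. Several of these families have near-identical copies side by side in the genome (Oas1, Ifi200, Gbp, Slfn and Phf11 genes), and an array probe set can read more than 1 copy, so the assignment to a single member is uncertain. Ifit3 lost its call without DHA5HT array 1 or control array 4, Gbp2 without DHA5HT arrays 1 or 3 or control array 4, and Phf11d and Slfn4 in 5 of the 8 fits without an array. Of the listed interferon-stimulated genes 6 did not pass: Stat2 and Irf1 above, Ifit2 (-0.40, adjusted p 0.307), Mx1 (-0.21), Gbp5 (-0.17) and Iigp1 (-0.16).

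Genes of antigen presentation fell in part. H2-T24, a non-classical class I gene of the major histocompatibility complex, stood at 7.07, 7.10, 7.00 and 7.67 in the control and at 4.94, 4.77, 4.88 and 5.68 with DHA5HT, 4.41-fold lower (adjusted p 9.28e-06). Control array 4 was the highest of its group, and array 4 was also the highest of the DHA5HT group. Of the 20 listed genes of antigen presentation 2 fell and none rose, against 0.478% lower and 0.122% higher over all genes: Tap1, the peptide transporter, by 0.66 (adjusted p 0.0051) and Psmb8, an immunoproteasome subunit, by 0.28 (adjusted p 0.0323). Psmb8 kept its call in just 1 of the 8 fits that left out an array, that without control array 1. The replicate block added Tapbp, the chaperone between transporter and class I molecules, at -0.29 (adjusted p 0.0536 without it and 0.0336 with it).

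**Figure D3:**
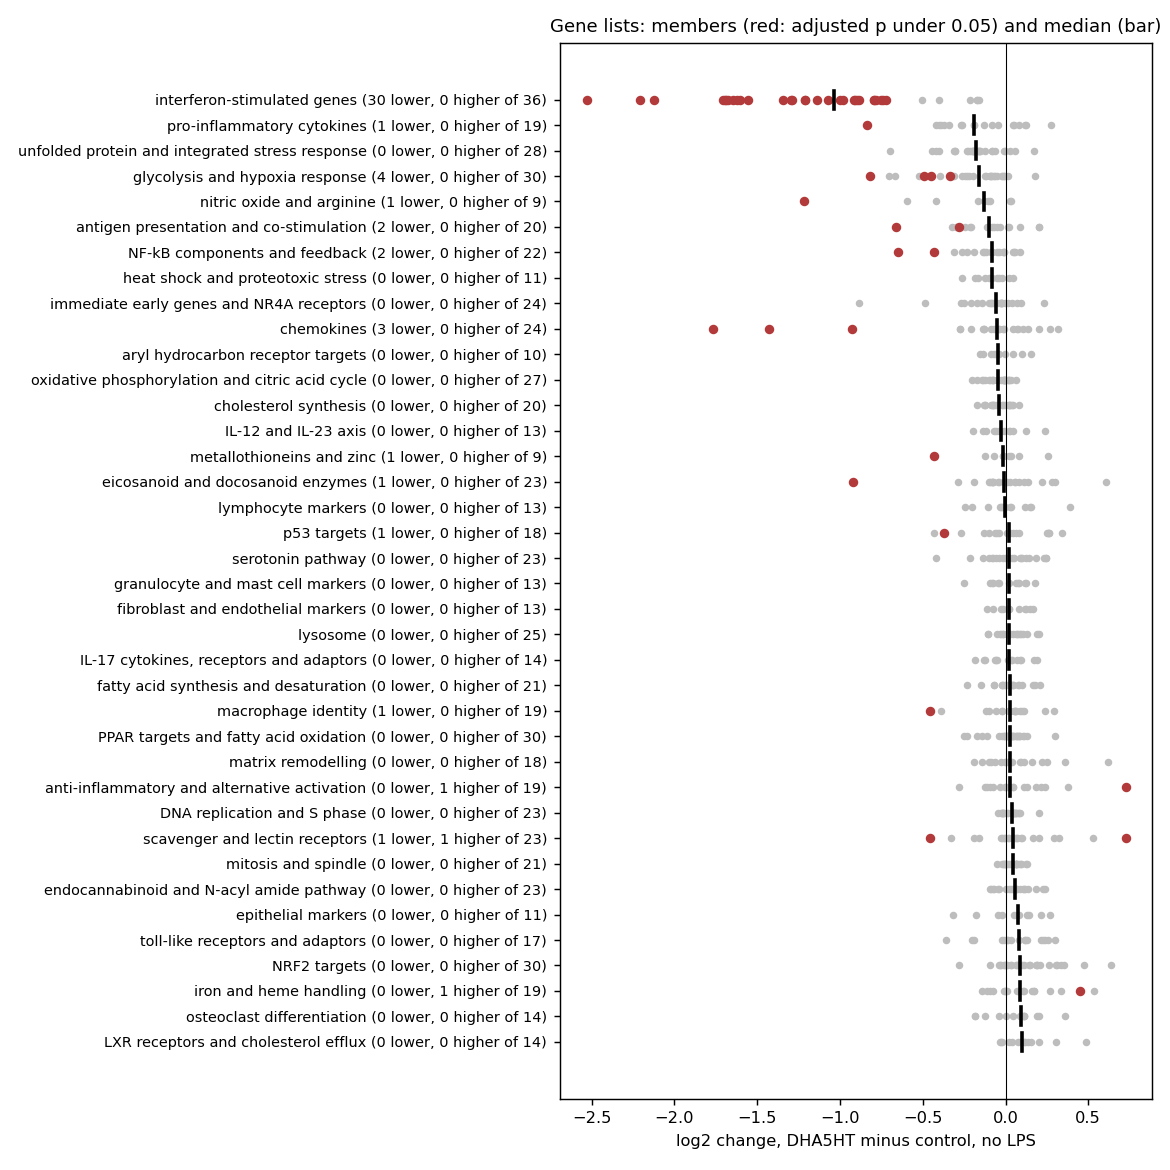
Change with DHA5HT (log2, x axis) of every measured gene in each of the 38 gene lists (y axis); red points passed the adjusted p of 0.05 and the black bar is the list's median. The interferon list stands at a median of -1.04, and the medians of the other lists lie between -0.19 and 0.10.

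Outside the interferon-stimulated genes, the inflammatory genes that fell were few. Of 24 chemokines 3 fell and none rose (list median -0.05), against 0.478% lower and 0.122% higher over all genes. Cxcl10 stood at 8.06, 8.03, 8.49 and 7.91 in the control and at 6.58, 5.77, 6.70 and 6.37 with DHA5HT, 3.4-fold lower (change -1.77, SE 0.19, adjusted p 3.88e-05). Ccl5 (RANTES), which attracts T cells and monocytes, stood at 7.39, 7.93, 7.45 and 8.12 and at 5.82, 6.25, 6.30 and 6.80, 2.69-fold lower (adjusted p 0.000172). Both are induced by interferon as well as by NF-kB, and in both the lowest control array lay above the highest DHA5HT array. Cxcl2, a neutrophil attractant, stood at 7.88, 8.26, 7.69 and 8.08 against 6.70, 7.05, 7.52 and 6.94, 1.9-fold lower (adjusted p 0.00588), with DHA5HT array 3 within 0.17 of control array 3. Ccl2, the monocyte attractant, moved from 9.17 ± 0.20 to 8.90 ± 0.21 and did not pass (adjusted p 0.386).

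Among 19 pro-inflammatory cytokines Tnfsf10 (TRAIL), a death ligand that interferon induces, was the 1 that fell, by 0.84 on the log2 scale from 4.68 ± 0.30 to 3.85 ± 0.19 (adjusted p 0.0128), and it lost its call without DHA5HT array 2 (0.0635). The list's median was -0.19, and over all genes 0.478% fell. Tnf moved from 10.08 ± 0.14 to 9.89 ± 0.08 (adjusted p 0.531), and Il6, at 3.12 and 3.04, lay below background. Il1b was at 4.42 and 4.47, and the anti-inflammatory cytokine Il10 at 3.61 and 3.52. Of 22 genes of NF-kB signalling 2 fell, both of them targets that act within the pathway: Tnfaip3 (A20), a deubiquitinating enzyme that ends the signal, by 0.65 (adjusted p 0.00513) and Traf1, an adaptor at TNF receptors, by 0.43 (adjusted p 0.00538). Tnfaip3 stood at 6.61, 6.70, 6.71 and 6.75 in the control and at 5.87, 5.82, 6.22 and 6.25 with DHA5HT. Rnf31, a subunit of the ligase that builds linear ubiquitin chains, and Nod2, a sensor of bacterial peptidoglycan, fell by 0.37 each; both lost their call in 4 of the 8 fits without an array and in both fits of the 8 arrays without LPS.

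Single inflammatory enzymes fell, Ptgs2 and Acod1, where 0.478% of all genes did. Ptgs2 (cyclooxygenase-2), the inducible enzyme of prostaglandin synthesis, stood at 9.98, 10.22, 9.87 and 10.46 in the control and at 8.91, 8.81, 9.48 and 9.65 with DHA5HT, 1.9-fold lower (adjusted p 0.00572), and was the 1 of 23 eicosanoid genes that fell; with the replicate block Pla2g7, a lipoprotein-associated phospholipase, rose by 0.61 (adjusted p 0.0131). DHA5HT arrays 3 and 4 lay nearer the control than arrays 1 and 2. Acod1, which makes itaconate, stood at 8.79, 9.39, 8.79 and 9.80 against 7.30, 7.86, 8.19 and 8.56, 2.32-fold lower (adjusted p 0.0102), and was the 1 gene that fell of 9 that handle nitric oxide and arginine. Nos2, the inducible nitric oxide synthase, moved from 5.29 ± 0.46 to 4.69 ± 0.54 with overlapping groups and did not pass (adjusted p 0.45). Gch1, which makes the cofactor of that enzyme, changed by -0.42 (adjusted p 0.066) and passed with the replicate block (0.0104). When the fit was confined to the 8 arrays without LPS, which leaves fewer arrays to estimate the spread, Acod1 and Ptgs2 did not pass; with the replicate block in that fit, Ptgs2, Cxcl2 and Traf1 did not.

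Genes that respond to low oxygen lay lower with DHA5HT, and 4 of the 30 in the list of glycolysis and hypoxia response fell: Bnip3, a mitophagy receptor, P4ha1 and P4ha2, subunits of the enzyme that hydroxylates collagen prolines, and Adm, the peptide adrenomedullin. Of the 30, 28 lay below 0, with a median of -0.16. Over all genes 46.1% lay below 0 and 0.478% fell. Bnip3 stood at 9.96, 10.19, 9.81 and 10.12 in the control and at 9.02, 8.90, 9.21 and 9.67 with DHA5HT, 1.77-fold lower (adjusted p 0.0144). P4ha1 fell by 0.45 and P4ha2 by 0.49 on the log2 scale, while Adm lay close to background (3.63 and 3.29). The list's mean over its 30 genes overlapped between the groups, with 9.38 to 9.61 in the control and 9.20 to 9.42 in the DHA5HT arrays. The number of its genes called fell to 0 without DHA5HT array 1 or without control array 4 and to 1 without DHA5HT array 2, without control array 2, or with the 8 arrays without LPS alone; it was 0 with those 8 arrays and the replicate block. Slc2a1, the glucose transporter, changed by -0.40 (adjusted p 0.088), Ankrd37 by -0.71 (0.142), and Ero1a, an oxidase of protein folding, by -0.67 (0.109 and, with the replicate block, 0.00706). The letters ACGTG, the core of the hypoxia response element, were in 22 of the 28 listed genes with a promoter window (78.6%). They were in 19.6% of all windows, in 24.6% of all measured genes with a window and in 14.3% of the lower genes with one. The list was made of glycolysis and hypoxia response genes, so its share describes the list and not an effect of DHA5HT.

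The 23 genes that rose did so by less. Mrc1, the mannose receptor of alternatively activated macrophages, had the largest change: 3.26, 3.60, 3.63 and 3.12 in the control and 4.09, 4.11, 4.21 and 4.10 with DHA5HT (change 0.72, SE 0.10, adjusted p 0.000719). Since the control arrays lay around background, the rise is given as at least 1.42-fold, the DHA5HT mean of 4.13 against background. That background is a median, and the epithelial markers averaged 4.03 to 4.11 in the DHA5HT arrays. Mrc1 thus stayed near the level of markers of other cell types, and the bound depends on the background chosen. Mrc1 was the 1 of 19 genes of the anti-inflammatory and alternative activation list that rose, and none fell. Over all genes 0.122% rose. Egr4, an immediate early transcription factor, rose likewise from background, by at least 1.49-fold (adjusted p 0.0064), a bound that depends on the background in the same way. Ms4a6d, a membrane-spanning protein of macrophages, stood at 8.67, 8.66, 8.69 and 8.74 and at 9.15, 9.55, 8.99 and 9.41, 1.5-fold higher (adjusted p 0.00657). Its control arrays lay close together and all below the DHA5HT arrays. Abcc3, an exporter of organic anions and conjugates, stood at 8.77, 8.63, 8.95 and 8.71 and at 9.24, 9.23, 9.37 and 9.40, 1.46-fold higher (adjusted p 0.00405).

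Selenop, the secreted selenium carrier, stood at 8.12, 8.01, 8.18 and 7.79 in the control and at 8.49, 8.67, 8.46 and 8.42 with DHA5HT, 1.4-fold higher (adjusted p 0.00404). Tfrc, the transferrin receptor that brings iron into the cell, stood at 9.12, 9.19, 9.48 and 9.27 and at 9.70, 9.82, 9.65 and 9.71, 1.37-fold higher (adjusted p 0.0097), the 1 of 19 iron and heme genes that passed; without DHA5HT array 2 its adjusted p was 0.122. Bcl2a1c, a gene of the anti-apoptotic BCL2A1 family that has near-identical copies, rose by 0.44 (adjusted p 0.00572). Rasgrp3, an activator of Ras and Rap, rose by 0.34 (adjusted p 0.00385). Ifi27, named for induction by interferon alpha, rose by 0.47 (adjusted p 0.0443), while its relative Ifi27l2a fell by 0.82; the rise lost its call with the replicate block (0.078) and in 6 of the 8 fits without an array. Of the 23 increases 12 kept their call whichever of the 8 arrays was left out, and of the 90 decreases 65 did. In the fit of the 8 arrays without LPS alone, Ms4a6d, Selenop, Rasgrp3, Pgap1 and Arhgef5 did not pass; with the replicate block in that fit, the first 4 of these, Bcl2a1c, Dpp10 and Tfrc did not. Sfxn5 and Ifi27 passed in neither of these fits. For Arhgef5, Dpp10, Dcst1, Sp9 and Twf1 a second probe set of the gene did not pass, with changes of 0.12, -0.07, -0.06, -0.09 and 0.12. Of the 23 genes 19 lay above background in both groups, and 2 were members of any of the 38 lists, Mrc1 and Tfrc.

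Further single members of the lists fell, where 0.478% of all genes did. Fcgr1, the high-affinity receptor for IgG, moved from 9.18 ± 0.13 to 8.72 ± 0.09 (-0.46, adjusted p 0.0264), the 1 of 19 macrophage identity genes that passed; it lost its call in 5 of the 8 fits without an array. Cdkn1a (p21), a cell cycle inhibitor, fell by 0.37 (adjusted p 0.0396), 1 of 18 p53 targets, and the zinc importer Slc39a10 by 0.43 (adjusted p 0.0429), 1 of 9 genes of metallothioneins and zinc transport. Leaving out an array ended the call of Cdkn1a in 5 of 8 fits and that of Slc39a10 in 6 of 8. Dck, the kinase of the deoxynucleoside salvage pathway, fell by 0.44 with little spread, from 9.41 ± 0.03 to 8.97 ± 0.07 (adjusted p 0.000486).

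In 24 of the 38 lists no gene passed the limma test without LPS, and the number with an unadjusted p under 0.05 is given for the lists named here; over all genes 881 lay lower and 973 higher at that level. The series' title names IL23 and IL17 signalling. None of 13 genes of the IL-12 and IL-23 axis passed (1 unadjusted, lower), with a list median of -0.03. Il23a, the specific subunit of IL-23, was at 4.70 ± 0.07 and 4.58 ± 0.09 (adjusted p 0.806), and Il12b, the subunit it shares with IL-12, at 4.30 ± 0.21 and 4.35 ± 0.19 (adjusted p 0.966). Both pairs of groups overlapped. None of 14 genes for IL-17 cytokines, their receptors and adaptor proteins passed (1 unadjusted, lower). Serotonin is part of the molecule, and none of 23 genes of the serotonin pathway passed (2 unadjusted lower, 3 higher), though Gch1 did with the replicate block. None of 23 genes of the endocannabinoid and N-acyl amide pathway passed (1 unadjusted, higher).

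The listed targets of the lipid-sensing and oxidant-sensing factors did not pass either. Of 30 NRF2 targets none passed and 9 lay higher at an unadjusted p under 0.05, with a median of 0.09; with the replicate block 1 passed, Gstm1, a glutathione transferase, at 0.35 (adjusted p 0.0466). Hmox1, which degrades heme, changed by -0.10, Nqo1, a quinone reductase, by 0.10, and Gclm, of glutathione synthesis, by 0.31 (adjusted p 0.456). None of 30 PPAR targets (2 unadjusted lower, 1 higher), 14 genes of LXR receptors and cholesterol efflux (2 higher), 20 genes of cholesterol synthesis (0) or 21 of fatty acid synthesis (3 higher) passed. Plin2, the lipid droplet coat, changed by 0.08, Angptl4, an inhibitor of lipoprotein lipase, by 0.13, Cpt1a, which admits fatty acids to mitochondria, by -0.04, and the cholesterol exporters Abca1 and Abcg1 by 0.09 and 0.20. The unfolded protein and integrated stress response had 25 of 28 genes below 0, a median of -0.18 and 10 genes lower at an unadjusted p under 0.05; none passed, the smallest adjusted p being 0.203, of the chaperone Hsp90b1. Of 24 immediate early genes 4 lay lower at that level; Ier3 changed by -0.88 (adjusted p 0.0622) and passed with the replicate block (0.0118). None passed among 23 genes of DNA replication (1 unadjusted, higher), 21 of mitosis (0), 27 of oxidative phosphorylation (4 lower) or 25 of the lysosome (2 higher).

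The genes that fell without LPS lay at a higher level with it. Their median over the 90 genes was 8.40 in the control, 7.57 with DHA5HT, 9.43 with LPS and 9.17 with LPS and DHA5HT. For the 36 interferon-stimulated genes the medians were 7.84, 6.78, 9.27 and 9.02 in the same order. Between LPS and LPS+DHA5HT, groups that share no array with the resting comparison, 337 of all genes changed (1.79%), 183 lower (0.972%) and 154 higher (0.818%); with the replicate block 647 did. Leaving out some single arrays moved that total by over 1.5 times: it was 143 without LPS array 2, 154 without LPS+DHA5HT array 4, 177 without LPS array 4, 180 without LPS+DHA5HT array 1, whose labels conflict, 222 without LPS array 1 and 223 without LPS array 3. Of the 90 genes that fell in resting cells, 77 lay below 0 with LPS, 10 fell and none rose, and their median change was -0.14 against -0.77 without LPS. Of the 23 that rose, 19 lay above 0 with LPS and 3 rose, with medians of 0.07 against 0.42. Both sets were chosen on the resting values, which favours larger changes there. Their medians therefore do not set the 2 effects side by side on equal terms.

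**Figure D4:**
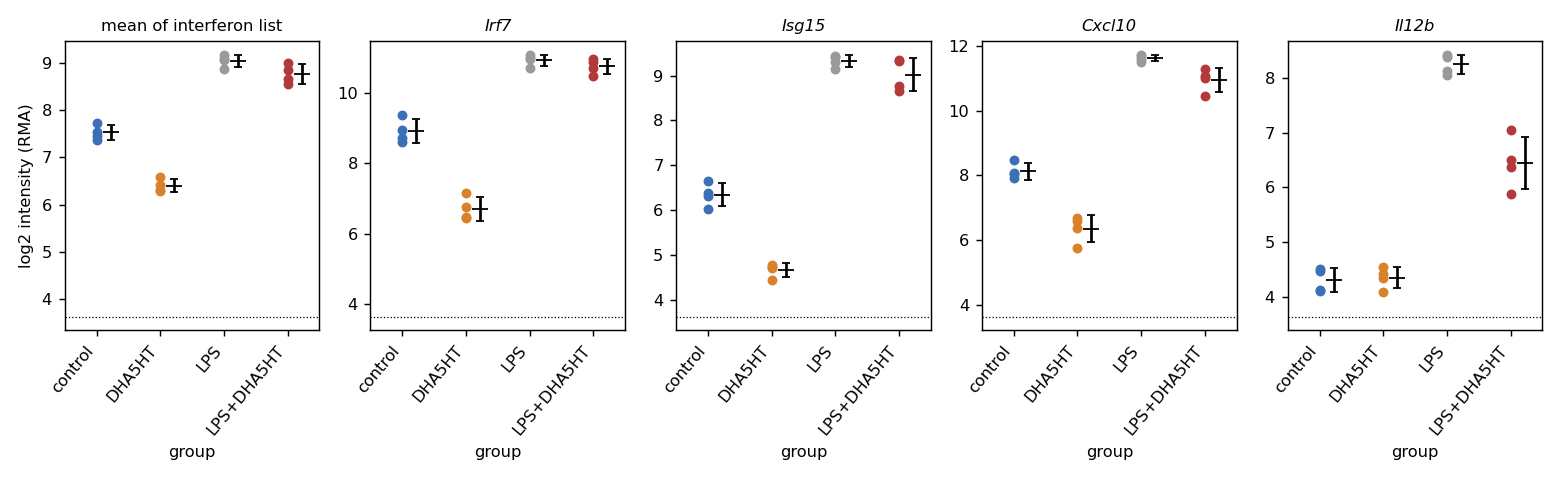
Log2 level (y axis, a separate scale in each panel) of the mean of the 36 interferon-stimulated genes and of Irf7, Isg15, Cxcl10 and Il12b in the 4 groups (x axis), with 1 point per array, a bar for mean ± SD and a dotted line at the background of 3.62. The interferon genes fall from control to DHA5HT without LPS, Irf7 from 8.91 to 6.70, while Il12b stays between 4.09 and 4.54 in the 8 arrays without LPS and differs between LPS and LPS+DHA5HT, at 8.25 and 6.45.

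The 13 genes called in both comparisons, 11.5% of the 113 and 3.86% of the 337, all moved the same way. Those that fell in both were Cmpk2 (-0.76 with LPS), Daxx (-0.36), Dhx58 (-0.47), Gbp3 (-0.35), Ifih1 (-0.42), Oasl1 (-0.56), P4ha2 (-0.44), Rnf31 (-0.33), Rsad2 (-0.96) and Slc39a10 (-0.53). Those that rose in both were Rasgrp3 (0.52), Sfxn5 (0.38) and Twf1 (0.20). Rsad2 stood at 10.38, 10.79, 10.52 and 10.87 with LPS and at 9.57, 9.94, 9.78 and 9.42 with LPS and DHA5HT, groups that did not overlap (adjusted p 0.00318). Rasgrp3, which LPS-treated cells held at a lower level than resting cells, stood at 6.19, 6.24, 6.27 and 6.18 and at 6.74, 6.73, 6.80 and 6.69. The calls with LPS of Cmpk2, Daxx, Oasl1, Rasgrp3, Rsad2 and Slc39a10 held whichever of the 16 arrays was left out, and those of the other 7 did not.

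The difference between the effect of DHA5HT with LPS and without it was tested as an interaction, and 62 genes passed (0.329%), 31 with a positive difference (0.165%) and 31 with a negative one (0.165%). With the replicate block 96 passed, and the number was 34 without LPS array 2, 35 without DHA5HT array 1, 37 without LPS array 1 and 41 without control array 2. Among them 27 of the genes that fell in resting cells had a positive difference, that is, a smaller decrease or none with LPS. The effect without LPS enters the difference, so this count describes genes chosen on part of it. Irf7 stood at 10.70, 10.95, 11.07 and 10.99 with LPS and at 10.47, 10.87, 10.69 and 10.96 with LPS and DHA5HT; these groups overlapped (change -0.18, adjusted p 0.717), and the difference from the resting effect was 2.03 (SE 0.24, adjusted p 0.000884). Isg15 stood at 9.14, 9.42, 9.31 and 9.44 against 8.65, 9.32, 8.76 and 9.34, with a difference of 1.37 (adjusted p 0.00649). Rtp4, at 8.34 ± 0.18 and 8.30 ± 0.38, had the largest difference of these genes, 2.49 (adjusted p 0.00137). Cmpk2 and Dhx58 fell with LPS too, and by less, with differences of 0.95 (adjusted p 0.00727) and 1.23 (0.000884). Rsad2 (0.66, adjusted p 0.379) and Cxcl10 (1.08, adjusted p 0.135) did not pass the test of the difference. All 4 of the increases with a difference past the threshold, Ms4a6d, Mrc1, Bcl2a1c and Tle3, had a negative one. Of these, Bcl2a1c alone kept that call whichever array was left out.

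**Figure D5:**
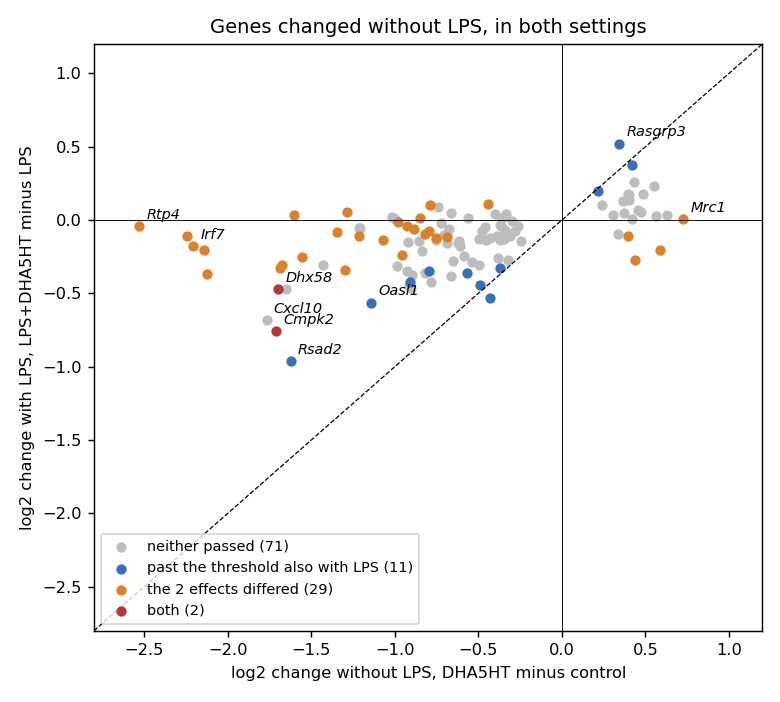
Change with DHA5HT in LPS-treated cells (log2, LPS+DHA5HT minus LPS, y axis) against the change in resting cells (log2, DHA5HT minus control, x axis) for the 113 genes changed without LPS, with a dashed line of equal effects. Of the 113, 11 passed with LPS but not the test of the difference, 29 passed that test alone, 2 passed both (Cmpk2 and Dhx58) and 71 neither, and most of the lower genes lie above the line of equal effects. The genes were chosen by the change on the x axis, which favours that position.

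The genes whose differences were negative were mostly other genes. Of the 31 with a negative difference, 27 did not change in resting cells. Il12b was at 8.25 ± 0.18 with LPS and 6.45 ± 0.48 with LPS and DHA5HT, a change of -1.80 (adjusted p 4.62e-05) beside 0.05 in resting cells, and Il23a at 8.63 ± 0.21 and 7.45 ± 0.27, a change of -1.18 (adjusted p 3.96e-05) beside -0.12. The differences were -1.85 (adjusted p 0.00228) and -1.06 (adjusted p 0.00542). In resting cells both lay at a low level, Il12b at 4.30 and Il23a at 4.70 in the control against a background of 3.62. That limits how large a decrease could be measured. It does not hide every decrease, since Tnfsf10 passed in resting cells from a control level like that of Il23a.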

How the data were processed

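The deposited values are log2 intensities on 35556 probe sets of 16 arrays, made by the authors with RMA (background correction, quantile normalization and summary of probes) per the submitters' processing notes, its version not given in the sources used here; per the labels' protocols 100 ng of total RNA with an integrity number above 8 were labelled for a whole-transcript assay. RMA compresses differences near background. They were used as deposited. Of the probe sets, 21218 name 1 gene, 1881 several and 12457 none in the platform annotation; the brightest probe set over all arrays stood for each of the 1386 genes with several, which left 18820 genes, 18790 of them matched to RefSeq. limma 3.58.1 (R 4.3.3) fitted 4 group means to all 16 arrays (12 residual degrees of freedom), so that the LPS arrays share in the estimate of spread, with two-sided tests, Benjamini-Hochberg adjustment over all genes and a threshold of 0.05, for DHA5HT without LPS, with LPS and the difference of these 2 effects. A gene is called above background where its group mean exceeds 3.62.

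Deviations from the group means correlated at 0.131 to 0.183 between control and DHA5HT arrays of the same number (other numbers -0.147 to 0.104). Between LPS and LPS+DHA5HT arrays of the same number they correlated at 0.116 to 0.205 (others -0.154 to 0.127). The ranges lay apart for control and DHA5HT and overlapped for the groups with LPS. A pairing by number is thus a reading of the data and of the numbers in the titles. The main fit leaves it out, and the replicate block puts it in. On the first 3 principal components (70.6%, 4.72% and 4.06% of the variance) LPS+DHA5HT array 4 stood apart on the second, at -22.4 against -9.36 to 10.0 for the others. No 2 arrays held identical values.

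The comparison and the gene lists were chosen with earlier results of these data known. The rule for named genes took the 12 largest changes in each direction with groups that did not overlap, up to 3 called members of each list, a set of inflammatory, lipid and stress genes, and the leading genes of the interaction and of both DHA5HT comparisons; the gene families and other genes named were chosen after their values were seen. The fit was tested on simulated data, in which 86% of genes changed by 0.5 (log2) and 100% of those changed by 1 were recovered in DHA5HT against control, over 18820 genes, with 2.11% false calls. The simulated noise was independent and normal, with the spread of the same fit and without the correlation of same-numbered arrays. These rates check the procedure and do not measure the error of the calls in the real arrays. Alternatives were the replicate block, left-out arrays, other variance models, a filter on low genes, renormalization and other thresholds. Promoter windows come from RefSeq (GRCm38.p6). Motifs were searched in Python 3.11.15, and matplotlib 3.10.9 made the plots.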

Additional observations from a re-analysis of the deposited data

Results flagged for a closer look

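In 3 of 162 groups of 4 arrays looked at, 1 array stood apart from the other 3; chance alone gives about 1 in 20 such groups. Control array 4 was high for H2-T24, at 7.67 against 7.00 to 7.10, and for Ifi44l, at 7.46 against 6.87 to 6.96; both genes passed in the resting comparison also without that array. DHA5HT array 4 was high for Nr4a1, an immediate early nuclear receptor that did not pass, at 5.01 against 4.48 to 4.49.

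The effect of DHA5HT differed between LPS-treated and resting cells, by limma's test of the difference with Benjamini-Hochberg adjustment, in 20 of the named genes. The difference (log2, with LPS minus without) was positive for interferon-inducible genes: Rtp4 2.49 (adjusted p 0.00137), Ifi44l 2.14 (0.00649), Irf7 2.03 (0.000884), H2-T24 1.93 (0.00366), Usp18 1.76 (0.0271), Isg15 1.37 (0.00649), Ifit1 1.37 (0.00276), Dhx58 1.23 (0.000884) and Cmpk2 0.95 (0.00727). Usp18 did not keep that call in 9 of the 16 fits that left out an array, the highest adjusted p being 0.0684.

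A negative difference was found for 3 genes that rose in resting cells, Ms4a6d at -0.79 (adjusted p 0.022), Mrc1 at -0.72 (0.0349) and Bcl2a1c at -0.71 (0.00424). It was also found for genes with no called change in resting cells: the LPS-induced transcript U90926 at -2.51 (0.00137), Il12b at -1.85 (0.00228), the nuclear receptor Nr4a3 at -1.80 (0.000884), the troponin Tnnt2 at -1.39 (0.000884), the unnamed transcript AI504432 at -1.18 (0.000772), Il23a at -1.06 (0.00542), the adhesion molecule Pecam1 at -0.99 (0.00228) and the cholesterol exporter Abca1 at -0.82 (0.0434). The calls of Ms4a6d, Mrc1 and Abca1 did not hold in every fit that left out an array, with highest adjusted p values of 0.0534, 0.0885 and 0.107.

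Among the 14338 probe sets that the comparison did not use, because they name several genes or none or are not the brightest of their gene, 23 passed the same threshold without LPS (0.16%), 21 lower and 2 higher, the lowest change being -2.03; 8 of the lower ones name several genes.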

How the results depend on the processing

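The number of genes changed without LPS, 113 (90 lower, 23 higher), was 179 with the replicate block, 61 (59 lower, 2 higher) with a change of at least 1.5-fold required as well, and 1854 (881 lower, 973 higher) at an unadjusted p under 0.05. The 23 higher genes became 56 with the block, 37 among genes above the median level, 9 with the 8 arrays without LPS alone, 10 with these and the block, 13 at an adjusted p of 0.01 and 44 at 0.1. Leaving out 1 array gave 83 to 116 in all, 67 to 95 lower, 16 to 24 higher and 27 to 30 of the interferon-stimulated genes. The 62 differences between the 2 effects became 96 with the block and 34 to 62 without 1 array; the 337 changes with LPS became 647 with the block, 180 without the array whose labels conflict, and 143 to 289 without 1 array. Of the 113 calls without LPS the block ended those of Adm (adjusted p 0.0571) and Ifi27 (0.078); beside the genes named with it, it changed no other call among the named genes. Of 81 named genes 43 were called; 20 kept the call in every one of the up to 18 settings that tested them (the filter on low genes left out Mrc1 and Egr4), 23 lost it in at least 1, none changed direction while called, and Nos2 alone gained it (-0.60, adjusted p 0.0476, the 8 arrays without LPS with the block). Genes near the background of 3.62 have compressed changes, and 4 arrays a group limit what small changes can pass.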

Other observations

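Among the genes that fell in resting cells and belonged to none of the lists were proteins of nuclear bodies and of RNA handling; they are named here after their values were seen. Sp100, a component of PML nuclear bodies, fell by 0.85 on the log2 scale (adjusted p 0.000549), Csprs, of the same gene cluster, by -0.75 (0.000893), and Daxx, a histone chaperone of these bodies, from 8.30 ± 0.08 to 7.73 ± 0.08 (SD, n = 4; -0.57, 0.000195). Sp100 and Csprs share repeated sequence, so their probe sets may read the same transcripts. Cmtr1, which methylates the first nucleotide of mRNA caps, fell by 0.33 (0.0064), the poly(A) polymerases Tent5a by 0.50 (0.0051; a second probe set, at -0.46, did not pass) and Tent4a by 0.37 (0.00533), and Rnf213, a large ubiquitin ligase, by 0.62 (0.00231), with a second probe set past the threshold as well. Per1, of the circadian clock, fell by 0.34 (0.0218) and Pdk3, a kinase that inhibits pyruvate dehydrogenase, by 0.31 (0.0365); they kept their calls in 2 and 1 of the 8 fits without an array. In the fit of the 8 arrays without LPS, Cmtr1, Tent4a, Per1 and Pdk3 did not pass, and with the replicate block in that fit Rnf213 did not either.

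The smaller increases outside the lists included signalling and transport genes, also named after their values were seen. Gna12, a G protein alpha subunit, moved from 8.89 ± 0.07 to 9.25 ± 0.09 (0.37, adjusted p 0.00657), Tle3, a transcriptional corepressor, from 7.14 ± 0.07 to 7.54 ± 0.12 (0.40, 0.00798), and Ptpn7, a phosphatase of MAP kinases, from 10.34 ± 0.05 to 10.57 ± 0.03 (0.24, 0.0432). Ptpn7 kept its call in 1 of the 8 fits without an array. With the 8 arrays without LPS Gna12 and Ptpn7 did not pass, and with the replicate block in that fit Tle3 did not either. Itgb5, an integrin chain, was the 1 changed gene whose groups overlapped, at 7.63, 7.57, 7.96 and 7.20 in the control and 8.22, 8.13, 8.31 and 7.94 with DHA5HT (0.56, 0.0428), and kept its call in 2 of the 8 fits without an array.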
